A study of Mus musculus with 6 samples.

Results

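This report describes 10 genes of the matrix metalloproteinase (MMP) system, out of 34745 genes counted, in the murine lung cancer cell line 889. The 7 MMP genes are Mmp13, Mmp3, Mmp10, Mmp2, Mmp9, Mmp14 and Mmp19, and the 3 genes of their tissue inhibitors are Timp1, Timp2 and Timp3. They were taken by name from the count table of every library. The genes were selected on their fold changes between the sg-kiaa1522 and sg-con libraries in an earlier look at these data, so the values of all 10 are given here as a description, with no p-value, and counts of those past a threshold describe the choice and support nothing.

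The study asked how the transcriptome of these cells changes when kiaa1522 is targeted. RNA-seq was done on 3 libraries of cells carrying Cas9 and a control sgRNA (sg-con) and 3 libraries of cells carrying Cas9 and an sgRNA against kiaa1522 (sg-kiaa1522), both delivered by lentiviral CRISPR vectors in which the control guide is one against EGFP. The labels give the strain C57BL/6 and the tissue lung, and name no drug for either group. Which of the study's kiaa1522 guides the sequenced cells carried, and whether the replicates came from separate cultures or clones, is not given in the sources used here, so any p-value measures only the spread between these libraries. Libraries held between 12220001 and 18609376 counts.

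The targeted gene is annotated as C77080 in the mouse. Its counts were 2214, 2404 and 2064 in sg-con against 2554, 3726 and 3667 in the libraries labelled sg-kiaa1522. Its level was higher, not lower, in the latter, at 126 ± 2.94 against 209 ± 6.33 CPM (counts scaled to the library size and normalised by the trimmed mean of M values, TMM; mean ± SD, n = 3 libraries each). The log2 fold change was 0.73 (SE 0.0569, adjusted p = 9.1e-05 by the quasi-likelihood test of edgeR, with the method of Benjamini and Hochberg over the 10046 tested genes). The RNA level thus does not show a loss of the target. RNA counts do not measure the protein, so whether the protein was lost was not tested here. Every direction given here holds for the libraries as labelled.

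MMPs are zinc-dependent endopeptidases that are made as inactive proenzymes and cleave collagens, proteoglycans and other extracellular proteins once their propeptide is removed. TIMPs bind the active site of an MMP in a one-to-one complex and block it. Tumor cells and the surrounding stroma can both produce MMPs, which take part in matrix turnover, the release of growth factors and invasion. Only transcripts were measured here, not enzyme or inhibitor activity.

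Mmp13, Mmp3 and Mmp10 carried the difference among the 7 MMP genes, and they lie on chromosome 9 within one cluster of MMP genes. Their promoters are shown because the 3 genes lay far higher in the libraries labelled sg-kiaa1522 and because each promoter holds the same 7-base AP-1 motif. The windows run from 250 bases before to 50 bases after the RefSeq transcription start in GRCm38.p6, on the plus strand. They span chr9:7272264-7272563 for Mmp13, chr9:7445572-7445871 for Mmp3 and chr9:7502092-7502391 for Mmp10. Capitals mark TGAGTCA or its reverse complement TGACTCA.
Mmp13: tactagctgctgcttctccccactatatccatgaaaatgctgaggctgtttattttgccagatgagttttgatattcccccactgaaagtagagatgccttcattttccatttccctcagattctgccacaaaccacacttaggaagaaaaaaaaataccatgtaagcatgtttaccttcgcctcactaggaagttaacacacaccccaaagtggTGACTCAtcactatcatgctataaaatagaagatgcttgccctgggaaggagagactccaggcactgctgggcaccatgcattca
Mmp3: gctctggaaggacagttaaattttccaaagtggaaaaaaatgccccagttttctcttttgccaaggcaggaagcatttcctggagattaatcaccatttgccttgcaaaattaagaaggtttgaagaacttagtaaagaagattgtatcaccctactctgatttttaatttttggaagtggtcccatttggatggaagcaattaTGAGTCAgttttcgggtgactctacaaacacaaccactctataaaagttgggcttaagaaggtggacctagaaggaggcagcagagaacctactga
Mmp10: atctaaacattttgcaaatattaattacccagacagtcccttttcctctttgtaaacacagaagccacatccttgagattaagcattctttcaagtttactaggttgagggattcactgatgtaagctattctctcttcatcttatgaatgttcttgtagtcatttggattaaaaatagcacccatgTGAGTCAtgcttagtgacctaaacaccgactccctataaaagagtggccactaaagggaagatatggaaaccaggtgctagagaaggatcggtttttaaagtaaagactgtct
The motif lay 35 bases before the start of Mmp13, in the TGACTCA orientation, 46 bases before that of Mmp3 and 63 bases before that of Mmp10.

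TGAGTCA on either strand was present in 1709 of 32851 promoter windows of the same length in the RefSeq table, or 5.2%. The table held 7 of the 10 genes, with Mmp2, Mmp9 and Mmp19 not among them. The AP-1 motif was found in Mmp13, Mmp3 and Mmp10 and in none of the windows of Mmp14, Timp1, Timp2 and Timp3. It was not particular to the genes with reads: 7 of the 10 MMP genes of the cluster carried it, among them Mmp12, Mmp1a, Mmp1b and Mmp7, which had almost no counts.

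Other motifs were searched on both strands in the same windows. GGAAGT, an ETS core, lay in the windows of Mmp13, Mmp3 and Timp1 and in 23.8% of all windows. AGGAAG, a core that overlaps it wherever both share a stretch, lay in those of Mmp13, Mmp3, Mmp14, Timp1 and Timp3 and in 35.4% of all windows. The NFkB consensus was found in none of the 7 windows and in 0.155% of all windows. The GC content of the 3 cluster promoters was 43.7% for Mmp13, 40.0% for Mmp3 and 37.7% for Mmp10, below the median of 52.7% over all windows. The promoters of Mmp14 (56.0%), Timp1 (55.0%), Timp3 (67.0%) and Timp2 (68.7%) lay above it. A match says that these letters are present, not that a factor binds.

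Mmp13 encodes collagenase 3, a secreted enzyme that cleaves fibrillar collagen. The gene lies on chromosome 9 from 7272514 to 7283331 (GRCm38, GENCODE M21). Counts were 543, 572 and 411 in sg-con against 7057, 11002 and 11219 in the libraries labelled sg-kiaa1522. All 3 libraries labelled sg-kiaa1522 were far above all 3 sg-con libraries. In CPM the values were 31.0, 30.7 and 24.5 against 579, 598 and 658, or 28.8 ± 3.66 against 611 ± 41.3 (SD, n = 3). The log2 fold change was 4.41 (SE 0.114), a 21.2-fold higher level. TPM are counts scaled to summed exon length and then to the library total. Ranked by TPM among the 34344 genes matched to GENCODE M21, Mmp13 stood at places 4297 to 5071 in sg-con. In the libraries labelled sg-kiaa1522 it stood at places 128 to 154.

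Mmp3 encodes stromelysin 1, a secreted enzyme with a broad range of matrix substrates that also activates the proenzymes of other MMPs. It lies on chromosome 9 from 7445822 to 7455975. Its counts were 13, 11 and 12 in sg-con and 152, 153 and 160 in the libraries labelled sg-kiaa1522. The groups were far apart, at 0.683 ± 0.0812 CPM and 10.1 ± 2.16 CPM (SD, n = 3). On the log2 scale the difference was 3.86 (SE 0.235), a 14.5-fold higher level. With 501 summed counts Mmp3 stood just inside the filter of more than 500 counts, and 465 of them came from the libraries in which it was high.

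Mmp10 encodes stromelysin 2, the close relative of Mmp3. It lies on chromosome 9 from 7502352 to 7510240. It had 43, 43 and 22 counts in sg-con against 624, 900 and 1190 in the libraries labelled sg-kiaa1522. These were 2.46, 2.31 and 1.31 CPM against 51.2, 48.9 and 69.8 CPM, again without overlap. The log2 fold change was 4.79 (SE 0.243), a 27.7-fold higher level and the highest of the 10 genes. The longest stretch shared without mismatch by transcripts of Mmp3 and Mmp10 was 104 bases, against 16 for Mmp3 and Mmp13 and 14 for Mmp10 and Mmp13. Fragments inside the stretch of 104 bases cannot be assigned by sequence alone, so the counts of Mmp3 and Mmp10 are less certain than that of Mmp13.

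**Figure D1:**
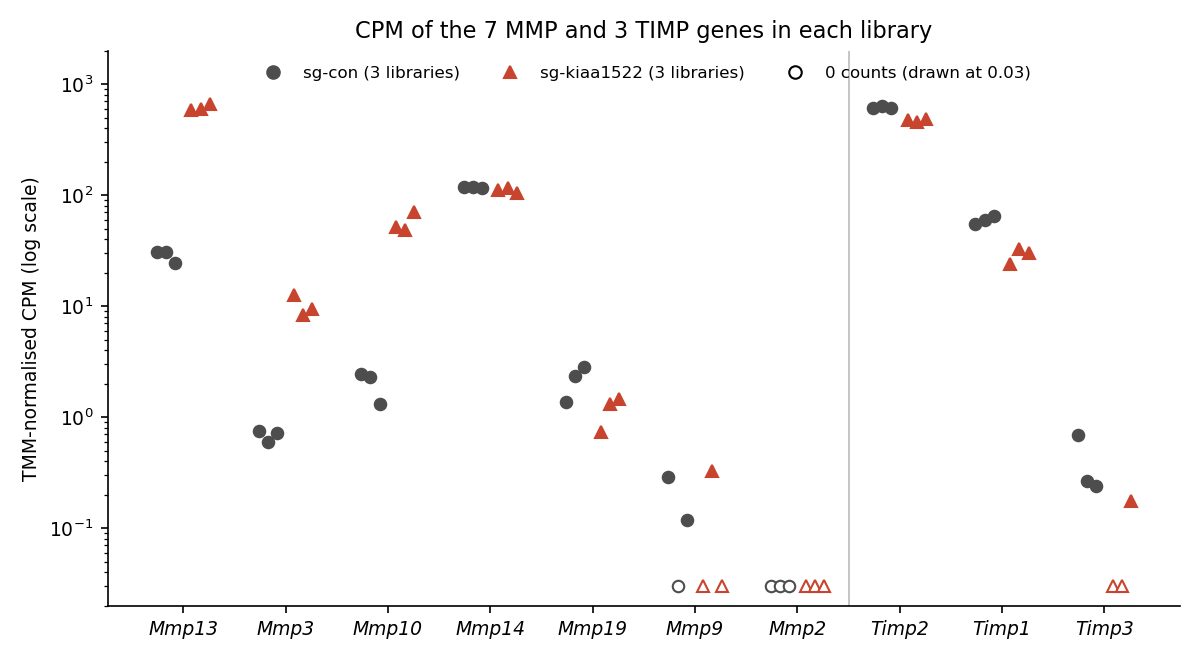
TMM-normalised CPM on a log axis of the 7 MMP genes and 3 TIMP genes, with 1 point per library, circles for sg-con and triangles for libraries labelled sg-kiaa1522, and open symbols for 0 counts drawn at a fixed height. Mmp13 stands at 24.5 to 31.0 CPM in sg-con and 579 to 658 CPM in the other group, while the 6 points of Mmp14 lie between 105 and 119 CPM.

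The gelatinases, which degrade denatured collagen and basement membrane collagen, were at or near the floor. Mmp2 (chromosome 8, 92827291 to 92853420) had 0 counts in every library. Given 3 counts as the limit that a count of 0 allows, its level was below 0.057 CPM over the sg-con libraries and below 0.0626 CPM over the libraries labelled sg-kiaa1522. Mmp9 (chromosome 2, 164940780 to 164955850) had 5, 0 and 2 counts in sg-con and 0, 6 and 0 counts in the libraries labelled sg-kiaa1522. The ratio of the summed counts scaled to depth was 0.941 (exact 95% interval 0.261 to 3.27, counting error only), so a difference in Mmp9 was not detectable at this depth. The ratio was 2.2 without sg-con replicate 1 (interval 0.393 to 22.3), and without sg-kiaa1522 replicate 2 that group was at 0 counts.

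Mmp14 encodes a membrane-type MMP that is anchored at the cell surface and activates the proenzyme of Mmp2 in a complex with Timp2. It lies on chromosome 14 from 54431612 to 54445364. Its level was 118, 119 and 115 CPM in sg-con and 112, 115 and 105 CPM in the libraries labelled sg-kiaa1522, and the groups overlapped. The log2 fold change was -0.086 (SE 0.062). The tested genes of chromosome 14 had a median log2 fold change of -0.38 over 343 genes, against -0.0067 over all tested genes. With the chromosome's median removed the value of Mmp14 changed sign to 0.29. Mmp14 passed the adjusted p there, the 1 of 15 settings in which it did. Nothing is read from that call, since the genes were chosen on this contrast.

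Mmp19 (chromosome 10, 128790910 to 128800824) encodes a secreted MMP with basement membrane substrates. It had 24, 44 and 47 counts in sg-con and 9, 24 and 25 counts in the libraries labelled sg-kiaa1522, 173 in all, and did not pass the filter. In CPM its values were 1.37, 2.36 and 2.81 against 0.738, 1.3 and 1.47, and the groups overlapped. Under edgeR's filterByExpr in place of the count filter, its log2 fold change was -0.85 (SE 0.347). Exons of Tmem198b on the opposite strand share 789 bases, or 22.3%, of the exons of Mmp19, and Tmem198b had 299, 349 and 322 counts against 174, 218 and 185. Whether the counting used strand is not given in the sources used here, so fragments in the shared bases cannot be told apart.

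Among the inhibitors, Timp1 encodes a secreted TIMP that many cell types induce together with MMPs. It lies on the X chromosome from 20870166 to 20874735. Its level was 54.8, 59.4 and 64.6 CPM in sg-con and 23.8, 32.5 and 29.8 CPM in the libraries labelled sg-kiaa1522. The groups did not overlap, with means of 59.6 ± 4.88 and 28.7 ± 4.46 CPM (SD, n = 3). The log2 fold change was -1.05 (SE 0.128). The value crossed the fold threshold of the study's methods, 1 on the log2 scale, to -0.99 without sg-con replicate 3 and to -0.94 without sg-kiaa1522 replicate 1. Timp1 lies inside the body of Syn1 on the opposite strand without a shared exon base, and Syn1 had 44, 58 and 51 counts in sg-con and 139, 171 and 148 counts in the libraries labelled sg-kiaa1522.

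Timp2 encodes the TIMP that inhibits MMPs and also bridges Mmp14 to the proenzyme of Mmp2. It lies on chromosome 11 from 118301069 to 118355740. Its counts were 10694, 11818 and 10304 in sg-con and 5847, 8370 and 8248 in the libraries labelled sg-kiaa1522. In CPM the sg-con libraries stood at 611, 634 and 615 and the libraries labelled sg-kiaa1522 at 479, 455 and 484, without overlap. Its log2 fold change was -0.39 (SE 0.054), smaller in size than that of Timp1. BC100451 lies inside Timp2 on the same strand, shares no exon base with it and had at most 10 counts in a library.

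Timp3 encodes a matrix-bound TIMP that also inhibits ADAM proteases. It lies on chromosome 10 from 86300372 to 86349506 and had 12, 5 and 4 counts in sg-con against 0, 0 and 3 counts in the libraries labelled sg-kiaa1522. The summed counts scaled to depth gave a ratio of 0.157 (exact 95% interval 0.03 to 0.525, counting error only). The interval leaves out the spread between libraries and the choice of the gene on this contrast, so nothing is read from it. With 1 library left out, the ratio was at most 0.256, reached without sg-kiaa1522 replicate 2, which had 0 counts. It was 0.244 without sg-con replicate 1, and without sg-kiaa1522 replicate 3 that group was at 0 counts. Timp3 shares 1733 exon bases, or 21.3% of its exons, with Syn3 on the opposite strand, which had at most 1 count in a library. In bulk RNA, fewer cells that express a gene and less RNA per cell cannot be told apart, here and for the other genes.

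Of the 10 genes, 6 passed the count filter and 4 (Mmp2, Mmp9, Mmp19 and Timp3) did not. The threshold of the study's methods was an adjusted p up to 0.05 and a log2 fold change of 1 or more in either direction. The study's volcano plot used a larger fold threshold. At the threshold of the methods 3 of the 10 were higher and 1 was lower, beside 2.74% of all tested genes called higher and 4.34% called lower. At an adjusted p of at most 0.05 alone, 3 were higher and 2 lower, beside 26.3% higher and 26.3% lower of all tested genes. The groups did not overlap in 5 of the 6, 3 higher and 2 lower, where 30.6% of all tested genes had non-overlapping groups with higher values and 31.1% with lower values. Nothing is read from these counts, since the genes were chosen on this contrast.

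**Figure D2:**
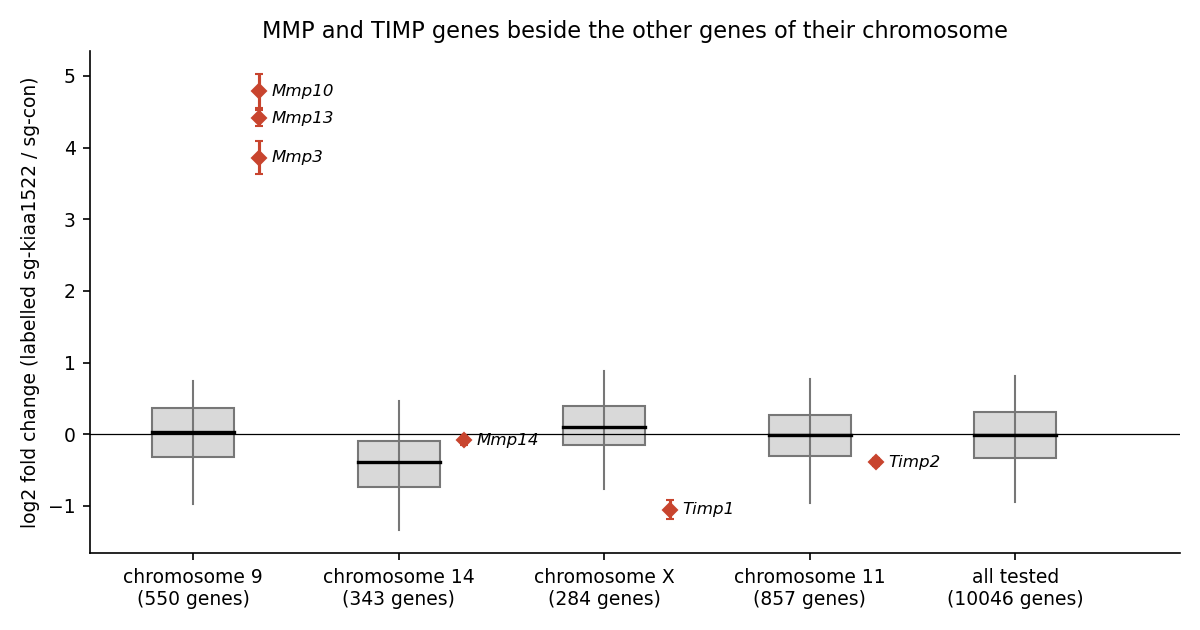
Log2 fold changes (y axis, with SE bars) of the 6 MMP and TIMP genes past the count filter as diamonds, beside boxes that give the median and middle 50% of the tested genes of their chromosome and lines from the 5th to the 95th percentile. The genes of chromosome 9 have a median of 0.028 while Mmp3, Mmp13 and Mmp10 lie at 3.86, 4.41 and 4.79, and Mmp14 lies above the median of -0.38 of chromosome 14.

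The surroundings of the 3 neighbours on chromosome 9 were then examined gene by gene. The cluster spans 427 kb, from 7272514 to 7699585, and holds 10 MMP genes among 11 genes of the files. Apart from Mmp13, Mmp3 and Mmp10, the other 7 MMP genes (Mmp12, Mmp1b, Mmp1a, Mmp8, Mmp27, Mmp20 and Mmp7) had at most 3 counts in every library, and the antisense gene AV064505 had none. Mmp12 (macrophage elastase) and Mmp1b lie in the interval of 162 kb between the end of Mmp13 and the start of Mmp3. Mmp1a lies in the interval of 46.4 kb between Mmp3 and Mmp10, and had 2 counts in 1 library labelled sg-kiaa1522. MMP genes with almost no counts thus lie between the 3 expressed ones and, on the side of Mmp7, beyond them.

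On the side of Mmp13, Dync2h1, a dynein heavy chain of cilia, rose from 21.7 ± 5.39 to 44.5 ± 2.07 CPM (SD, n = 3; log2 fold change 1.03, SE 0.164, adjusted p = 0.0016 by edgeR's quasi-likelihood test). Dcun1d5, which lies between Dync2h1 and Mmp13, had 46.2 ± 5.32 and 50.7 ± 2.86 CPM (log2 fold change 0.13, adjusted p = 0.31 in the same test). On the side of Mmp7, Gm10709 (log2 fold change 0.049, adjusted p = 0.78) and Tmem123 (log2 fold change 0.084, adjusted p = 0.55) did not pass the test.

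**Figure D3:**
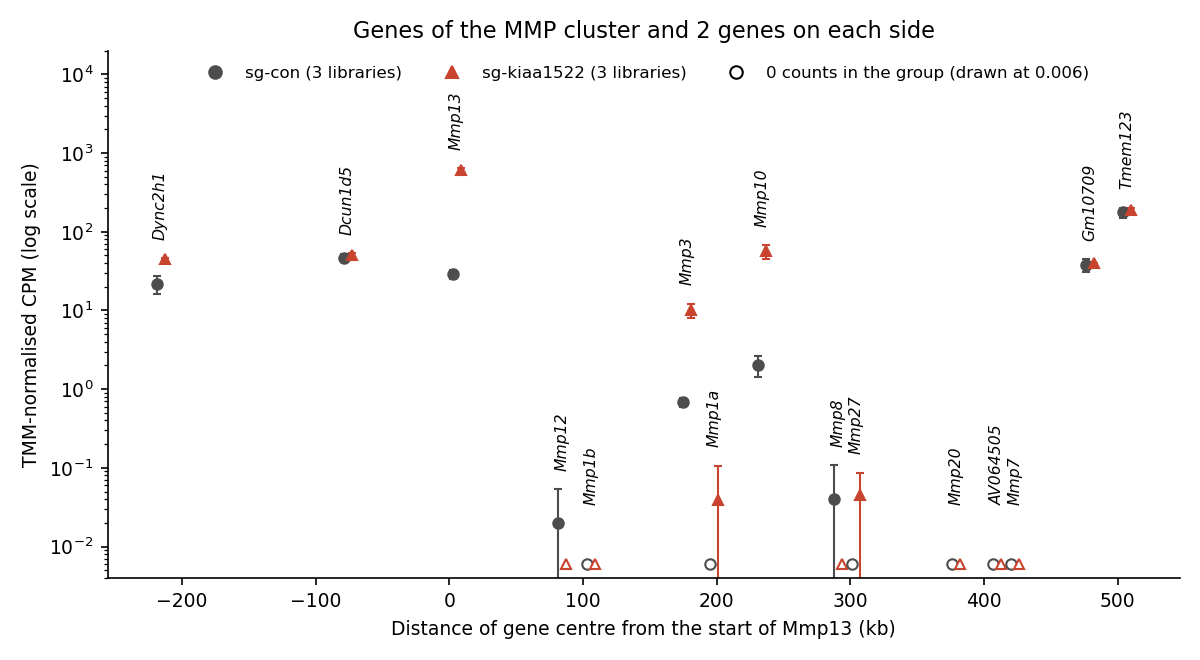
Mean TMM-normalised CPM on a log axis (bars are SD, n = 3 libraries per group) against the distance of each gene's centre from the start of Mmp13 in kb, for the 11 genes of the MMP cluster and 2 genes on each side. Mmp13, Mmp3 and Mmp10 are separated between the groups, the other genes of the cluster lie at 0 or near it (open symbols), and Dcun1d5, Gm10709 and Tmem123 lie at similar levels in both groups.

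Levels of different genes were compared per summed exon length, in TPM. In sg-con the order was Timp2 (410 ± 6.95 TPM), Timp1 (173 ± 11.3), Mmp14 (50.8 ± 1.64), Mmp13 (27.7 ± 3.86), Mmp10 (3.04 ± 0.968), Mmp19 (1.58 ± 0.509) and Mmp3 (0.979 ± 0.132), with Timp3, Mmp9 and Mmp2 under 0.3 TPM in every library. Mmp19 and Mmp3, and Mmp10 and Mmp19, were neighbours whose libraries overlapped in that order. In the libraries labelled sg-kiaa1522 Mmp13 stood first at 629 ± 51.5 TPM, followed by Timp2 (333 ± 15.6), Mmp10 (90.5 ± 19.8), Timp1 (88.8 ± 13.7), Mmp14 (51.0 ± 1.66), Mmp3 (15.3 ± 3.29) and Mmp19 (0.911 ± 0.304). Mmp10 and Timp1 overlapped there.

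The summed level of the 7 MMP genes was 84.3 ± 5.99 TPM in sg-con and 787 ± 68.7 TPM in the libraries labelled sg-kiaa1522. The summed level of the 3 TIMP genes was 583 ± 4.58 and 422 ± 16.6 TPM. The ratio of MMP to TIMP transcripts was 0.154, 0.147 and 0.132 in the sg-con libraries and 1.82, 1.8 and 1.96 in the libraries labelled sg-kiaa1522. TIMP transcripts thus outnumbered MMP transcripts in each sg-con library and were outnumbered in each of the other 3. Without Mmp13 the ratio was 0.0968 ± 0.00436 and 0.373 ± 0.03, so in that case TIMP transcripts were the more abundant in all 6 libraries. Over all 23 MMP genes and 4 TIMP genes of the files the ratio was 0.36 ± 0.00862 and 2.08 ± 0.0896.

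The make-up of the MMP transcripts differed too. Mmp14 made up between 58.8% and 63.3% of the summed MMP TPM in sg-con and between 5.68% and 6.99% in the libraries labelled sg-kiaa1522. Mmp13 made up between 30.1% and 34.4% and between 79.4% and 80.9%. Among the 3 neighbours alone, the share of Mmp13 was similar in both groups, between 86.3% and 88.8% in sg-con and between 84.3% and 87.1% in the other. Mmp10 stood above Mmp3 in TPM in all 6 libraries, by a factor of 1.92 to 4.09 in sg-con and 4.29 to 7.78 in the libraries labelled sg-kiaa1522. Timp2 stood above Timp1 in TPM by a factor of 2.17 to 2.54 and of 3.19 to 4.6.

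**Figure D4:**
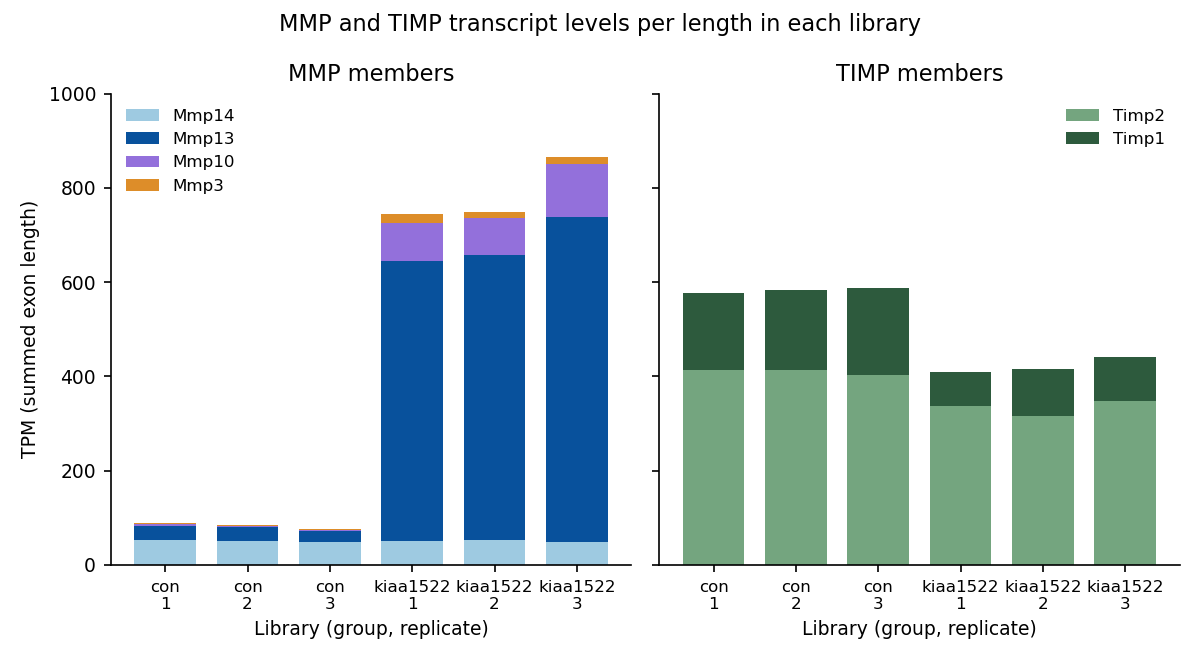
Stacked TPM (y axis, from 0) of the MMP genes (left) and the TIMP genes (right) in each of the 6 libraries, drawn for the genes that passed the count filter. The segment of Mmp13 averages 27.7 TPM in sg-con and 629 TPM in the libraries labelled sg-kiaa1522, while that of Mmp14 averages 50.8 and 51.0 TPM and that of Timp2 410 and 333 TPM.

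Among the 10046 tested genes, those whose pattern over the 6 libraries was most like that of the 3 neighbours were sought. The measure was the Euclidean distance between mean-centred profiles of log2(CPM + 0.5). The profiles were not scaled, and the 3 genes were chosen on these libraries. A small distance thus mostly reflects a similar fold change, and nothing further is read from it. The closest gene to Mmp13 was Mmp10 (distance 0.418), and Mmp13 was the closest to Mmp10. The next for both was Map1b, which encodes a microtubule-associated protein of neurons, at distances of 0.452 and 0.456. Map1b had 6, 11 and 2 counts in sg-con and 168, 259 and 317 counts in the libraries labelled sg-kiaa1522. For Mmp3 the closest were Mtm1, a phosphoinositide phosphatase, at 0.475 and Sncg, which encodes gamma-synuclein, at 0.523. Mtm1 had 21, 17 and 15 counts against 135, 177 and 185, and Sncg 60, 66 and 74 against 557, 794 and 745. Map1b, Mtm1 and Sncg passed the count filter mostly through the group in which they were high. Mmp3 lay farther from its cluster neighbours, at 1.64 from Mmp13 and 1.88 from Mmp10. Map1b and Mmp3 had 0.351 and 0.683 CPM in sg-con, close to the pseudocount, and the order depended on it. With 0.1 in place of 0.5, chosen after seeing the data, Map1b was 11th from Mmp13 (distance 1.41) and Mboat2 was first (0.622), ahead of Mmp10 (0.648), while Mmp3 lay at 1.1 from Mmp13 and 1.65 from Mmp10, and Sncg (0.513) and Mtm1 (0.637) were still its closest.

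The other genes of the pathway were described in 8 lists with 122 genes, of which 59 were tested, and for these the same quasi-likelihood test of edgeR was used, adjusted over all tested genes. At an adjusted p of at most 0.05, 11 rose and 21 fell, where 26.3% of all tested genes rose and 26.3% fell, and the median log2 fold change was -0.14 against -0.0067 over all tested genes. The counts in the single lists, markers included, stand beside the same shares.

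Of the 16 other MMP genes 3 were tested, and these 3 fell, with a median log2 fold change of -0.68. Mmp28 (epilysin) fell from 45.6 ± 4.2 to 27.8 ± 2.11 CPM, with a log2 difference of -0.71 (SE 0.0999, adjusted p = 0.00093). Mmp11 (stromelysin 3, a furin-activated MMP) fell from 85.1 ± 8.41 to 59.6 ± 4.56 CPM (log2 fold change -0.51, adjusted p = 0.0035). Mmp23, a membrane-bound MMP, fell from 14.8 ± 4.51 to 9.32 ± 1.46 CPM (log2 fold change -0.68, adjusted p = 0.047), but its call was lost in 6 of 14 alternatives, among them the replicate block (adjusted p = 0.099) and 5 of the 6 fits without 1 library. Among the untested ones, Mmp15 had between 5 and 12 counts in a library, Mmp17, a membrane-type MMP, had 12, 11 and 7 counts against 24, 13 and 26 and was called higher with filterByExpr (log2 fold change 1.26, adjusted p = 0.041), and the other 11 had at most 3 counts in every library.

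None of the 8 other inhibitor genes passed the count filter. Reck, which encodes a membrane-anchored MMP inhibitor, had 0 counts in every library, and Timp4 had 9, 8 and 7 counts in sg-con and 7, 7 and 3 in the libraries labelled sg-kiaa1522. Timp1 and Timp2 thus made up nearly all of the inhibitor transcripts counted.

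Of the 14 genes of proteases that activate MMP proenzymes, 5 were tested, 3 fell and none rose (median -0.34). Pcsk6, a proprotein convertase, fell from 7.26 ± 0.952 to 2.75 ± 0.175 CPM (log2 fold change -1.4, SE 0.16, adjusted p = 0.00039 by edgeR). It had 512 summed counts, 382 of them from sg-con, and so passed the count filter through the group in which it was high, and it was also called with no filter other than 1 count (adjusted p = 6.5e-05). Pcsk7, another convertase, fell by 0.57 on the log2 scale (adjusted p = 0.0096). Plau, which encodes the urokinase plasminogen activator, fell from 25.8 ± 1.64 to 20.4 ± 2.7 CPM (log2 fold change -0.34, adjusted p = 0.044), a call that was lost in 10 of 14 alternatives (adjusted p = 0.07 with the replicate block). Like Mmp14 it lies on chromosome 14, and with the chromosome's median removed its value was 0.039. Furin, which cleaves the propeptides of Mmp14 and Mmp11, had a log2 fold change of -0.27 (adjusted p = 0.072), and passed without sg-kiaa1522 replicate 1 (adjusted p = 0.035).

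Of 12 genes of receptors and clearance, 10 were tested, 3 fell and none rose (median -0.19). Bsg, which encodes basigin, also known as an inducer of MMPs, fell from 346 ± 47.8 to 164 ± 36.2 CPM (log2 fold change -1.08, SE 0.164, adjusted p = 0.0013 by edgeR). Lrp1, the endocytic receptor that clears MMPs and TIMP complexes, fell from 292 ± 19.3 to 167 ± 14.3 CPM (log2 fold change -0.81, adjusted p = 0.00024). Cd151, a tetraspanin, fell by 0.21 on the log2 scale (adjusted p = 0.041), and the call was lost in 9 of 14 alternatives (adjusted p = 0.11 with the replicate block). Cd44, a docking site for MMPs, had 406 ± 12.4 and 402 ± 52.8 CPM (adjusted p = 0.92). Without sg-con replicate 1, 2 genes of the list were called higher and 4 lower: Itgav, an integrin subunit that docks MMPs (log2 fold change 0.62, adjusted p = 0.0088), and Cav1, caveolin 1 (0.48, adjusted p = 0.0099), gained a call there, as did Cd63 (-0.26, adjusted p = 0.014).

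The related ADAM proteases are membrane sheddases, and of 11 genes 6 were tested, 3 fell and none rose (median -0.26). Adam10 fell from 358 ± 165 to 139 ± 5.17 CPM (log2 fold change -1.36, SE 0.328, adjusted p = 0.01 by edgeR). Its sg-con libraries were spread widely, at 497, 175 and 401 CPM. Adam15 fell by 0.65 (adjusted p = 0.00066) and Adam12 by 0.34 (adjusted p = 0.011) on the log2 scale. Of 19 genes of the ADAMTS proteases, which are secreted and cleave proteoglycans and procollagens, only 2 passed the count filter and both rose. Adamts10 rose from 11.1 ± 1.87 to 22.5 ± 1.35 CPM (log2 fold change 1.03, adjusted p = 0.00072) and Adamts14 from 20.3 ± 1.05 to 29.7 ± 1.15 CPM (log2 fold change 0.55, adjusted p = 0.0016). The direction of the list rests on the count filter: with filterByExpr 2 genes were higher and 2 lower. Those lower were Adamts7, at 6.34, 7.14 and 5.79 CPM in sg-con and 3.2, 3.37 and 2.99 CPM in the other group (log2 fold change -1.0, adjusted p = 0.0012), and the aggrecanase Adamts4 (log2 fold change -0.94, adjusted p = 0.019). In the ADAM list Adam22 was called higher in that setting (log2 fold change 1.09, adjusted p = 0.015).

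Transcription factors that bind MMP promoters moved in both directions: of 20 genes 19 were tested, 7 rose (4 with the replicate block, 5 with the chromosome medians removed or without sg-kiaa1522 replicate 3), 5 fell and 7 did not pass the test (median 0.24). AP-1 dimers of FOS and JUN family proteins bind the motif shown in the promoters above. Fosl1 stood at 58.2, 73.9 and 75.1 CPM in sg-con and at 159, 181 and 183 CPM in the libraries labelled sg-kiaa1522, and rose with a log2 fold change of 1.33 (SE 0.112, adjusted p = 0.00011 by edgeR). Fosl2 rose from 70.2 ± 3.8 to 108 ± 1.49 CPM (log2 fold change 0.61, adjusted p = 0.00028). Other genes of the same family fell: Fos stood at 277, 279 and 289 CPM in sg-con and at 61.6, 41.1 and 51.5 CPM in the other group (log2 fold change -2.46, adjusted p = 2.7e-05), and Fosb fell from 247 ± 8.51 to 68.2 ± 14.6 CPM (log2 fold change -1.86, adjusted p = 9e-05). Their partners Junb (log2 fold change -0.53, adjusted p = 0.00045) and Jun (log2 fold change -0.36, adjusted p = 0.009) fell as well, and Jund did not pass the test (0.046, adjusted p = 0.8).

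Outside AP-1, Ets2 rose from 79.3 ± 5.08 to 130 ± 5.48 CPM (log2 fold change 0.71, adjusted p = 0.00022 by edgeR) and Egr1, an immediate-early zinc finger factor, fell from 576 ± 16.6 to 222 ± 10.9 CPM (log2 fold change -1.37, adjusted p = 1.5e-05). Rela, the p65 subunit of NFkB, rose from 108 ± 12.4 to 155 ± 4.71 CPM (log2 fold change 0.52, adjusted p = 0.0025), while Nfkb1, the gene of the p50 subunit, did not pass (-0.093, adjusted p = 0.3). Cebpb (log2 fold change 0.39, adjusted p = 0.045), Runx2 (0.24, adjusted p = 0.0097) and Etv5 (0.25, adjusted p = 0.025) rose too, and these were the 3 calls lost with the replicate block (adjusted p = 0.057, 0.054 and 0.08). Runx1 (-0.075, adjusted p = 0.43), Stat3 (0.19, adjusted p = 0.1), Etv4 (0.28, adjusted p = 0.065) and Ets1 (0.45, adjusted p = 0.38) did not pass. Ets1 had 41.7, 133 and 49.6 CPM in the libraries labelled sg-kiaa1522, and its value was -0.26 without replicate 2 of that group. Sp1 had 131, 4.94 and 104 CPM in sg-con, so that sg-con replicate 2 stood far below the others, and did not pass (log2 fold change 1.02, adjusted p = 0.32). Without that library its log2 fold change was 0.46 and passed (adjusted p = 0.024). Stat3 passed without sg-con replicate 1 (adjusted p = 0.02) and Etv4 without sg-con replicate 3 (adjusted p = 0.029). Whether these factors take part in the levels of the MMP genes was not tested.

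Matrix genes whose products MMPs cleave were mixed: of 22 genes 14 were tested, 2 rose, 4 fell and 8 did not pass the test (median -0.12). Acan, the proteoglycan aggrecan, rose from 7.95 ± 0.447 to 27.5 ± 5.29 CPM (log2 fold change 1.79, SE 0.153, adjusted p = 0.00012 by edgeR) and Spp1, osteopontin, from 1970 ± 139 to 3690 ± 280 CPM (log2 fold change 0.91, adjusted p = 0.00012). Lamb3, a laminin chain of epithelial basement membranes, fell from 292 ± 12.5 to 85.2 ± 24.1 CPM (log2 fold change -1.78, adjusted p = 0.00023). The fibrillar collagen genes Col5a1 (log2 fold change -1.57, adjusted p = 4.8e-05) and Col1a2 (log2 fold change -1.46, adjusted p = 1.5e-05) fell. With filterByExpr Col1a1 (log2 fold change -1.99, adjusted p = 0.00015) and Bgn (-0.87, adjusted p = 0.0041) were also called lower and Nid1 (1.87, adjusted p = 0.031) higher. Without sg-con replicate 3, 7 genes of the list were lower in place of 4, with Vcan (-0.5, adjusted p = 0.021), Hspg2 (-0.29, adjusted p = 0.01) and Lama5 (-0.17, adjusted p = 0.05) gained, without sg-con replicate 1 3 were higher, and with the chromosome medians removed 4 were higher and 6 lower. Fn1, fibronectin, had 2510 ± 401 and 2270 ± 213 CPM (adjusted p = 0.34).

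**Figure D5:**
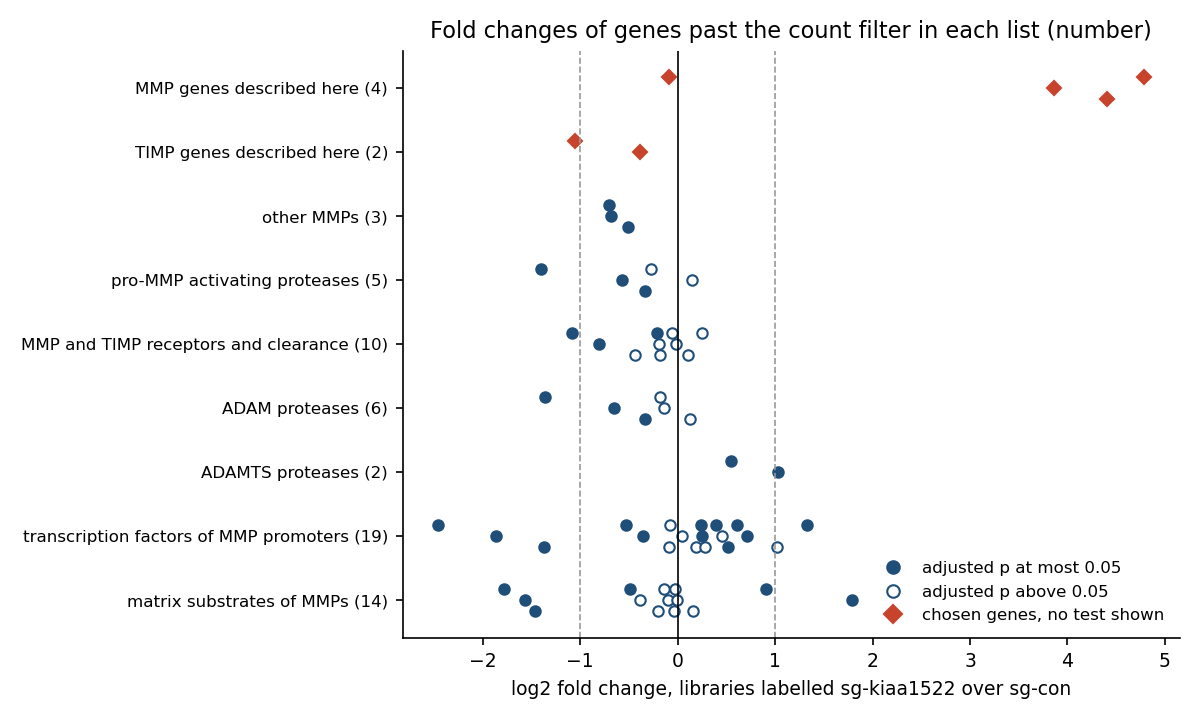
Log2 fold changes (x axis, libraries labelled sg-kiaa1522 over sg-con) of the genes past the count filter in each list, with diamonds for the MMP and TIMP genes described here, filled circles at an adjusted p of at most 0.05, open circles above it and dashed lines at a log2 fold change of 1 in size. Mmp3, Mmp13 and Mmp10 lie at 3.86 to 4.79, above every other gene drawn, and the 3 other MMP genes lie between -0.71 and -0.51.

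Markers of cell types that can make these MMPs were measured in the same libraries. Of 10 lung epithelial and carcinoma markers 7 were tested, 1 rose (Hmga2) and 5 fell, and the summed level was between 4090 and 4790 CPM in sg-con and between 3590 and 3790 CPM in the libraries labelled sg-kiaa1522. Among those that fell, Cdh1, E-cadherin, went from 56.2 ± 4.91 to 20.5 ± 1.14 CPM (log2 fold change -1.45, adjusted p = 5.1e-05), Krt19 from 794 ± 108 to 478 ± 36.0 CPM (-0.73, adjusted p = 0.0012) and Sftpb, a surfactant protein gene, from 21.5 ± 4.01 to 13.5 ± 1.78 CPM (-0.67, adjusted p = 0.012). Krt18 was the weakest call (log2 fold change -0.19, adjusted p = 0.05) and was lost in 10 of 14 alternatives (adjusted p = 0.13 with the replicate block). Nkx2-1, the lung lineage factor, had 55.4, 58.8 and 13.5 CPM in sg-con and 10.8, 9.45 and 39.3 CPM in the libraries labelled sg-kiaa1522, with 1 library apart in each group, and did not pass (log2 fold change -1.09, adjusted p = 0.21), but did without sg-kiaa1522 replicate 3 (-2.08, adjusted p = 0.033). Krt8 and Krt18 were abundant in every library, while Epcam had 0 counts and Krt7 at most 3. Of 8 fibroblast markers only Pdgfrb was tested and it fell (log2 fold change -0.72, adjusted p = 0.0086 by edgeR), the summed level was between 42.3 and 44.5 CPM and between 22.4 and 34.3 CPM, and Thy1, Fap and Tcf21 had 0 counts. The neutrophil markers (7 genes, between 5.25 and 6.33 CPM and between 5.17 and 6.74 CPM) and the endothelial markers (6 genes, between 0.805 and 1.71 CPM and between 0.938 and 1.23 CPM) had no tested gene.

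Macrophages are a known source of MMPs, and of 8 macrophage markers 3 were tested and all 3 rose: Cd68 from 1.19 ± 0.0511 to 11.2 ± 1.41 CPM (log2 fold change 3.23, adjusted p = 2e-05 by edgeR), Cd14 (log2 fold change 0.92, adjusted p = 0.00043) and Mrc1 (log2 fold change 0.42, adjusted p = 0.021, lost in 6 of 14 alternatives, adjusted p = 0.059 with the replicate block). Cd68 passed the count filter through the group in which it was high (63 against 543 counts), and was also called with no filter other than 1 count (adjusted p = 1.5e-07). The summed level of the list was between 62.7 and 71.0 CPM in sg-con and between 92.8 and 115 CPM in the other group. Of the defining macrophage genes, Adgre1 had 0 counts in every library, and Ptprc had 14, 1 and 6 counts and Csf1r 5, 0 and 1 in sg-con against at most 2 and 0 in the libraries labelled sg-kiaa1522. Lyz2, below the count filter, had 63, 18 and 37 counts against 11, 17 and 16, and was called lower with no filter other than 1 count (log2 fold change -1.27, adjusted p = 0.033). Of 7 mast cell markers only Mcpt1 was tested. It fell, with a log2 fold change of -5.25 (adjusted p = 8.2e-05 by edgeR), or -5.88 without sg-kiaa1522 replicate 1. The summed level of the list went from between 534 and 624 CPM to between 8.91 and 26.6 CPM, while Fcer1a, Cpa3 and Ms4a2 had 0 counts. Mcpt4, below the count filter, had 105, 124 and 122 counts against 0, 0 and 1 and was called lower with filterByExpr (adjusted p = 1.9e-05). The part of the epithelial, fibroblast, macrophage and mast cell lists in the levels of the MMP and TIMP genes was not tested.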

How the data were processed

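The authors trimmed and filtered the reads, mapped them to GRCm38 and counted fragments per gene, with HISAT2 2.0.4 and StringTie 1.3.0 named in the submitters' processing notes. The deposited files hold raw counts, as whole numbers for each Ensembl gene and not normalized, in 1 file per library. No per-sample column was left unused.

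Genes with more than 500 counts summed over the 6 libraries, the study's filter, were tested (10046 of 34745, holding between 99.5% and 99.6% of the counts). TMM normalization and edgeR 4.0.16's quasi-likelihood test (R 4.3.3) were applied without covariates, with Benjamini-Hochberg adjustment over all tested genes. TMM factors ran from 0.989 to 1.01; edgeR's common biological coefficient of variation came to 0.127. The floor of 3 counts equals between 0.161 and 0.246 CPM in a library and covers counting error only. The steps were tested on simulated data. TPM used summed exon lengths of GENCODE M21 (34344 identifiers matched), and promoters came from a RefSeq table of GRCm38.p6. No replicate pair of a group agreed within sampling noise (chi-square per degree of freedom 12.3 to 30.7).

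The MMP and TIMP genes and the 8 pathway and 6 marker lists were chosen with earlier results of these data known. Named are the 10 genes, the targeted gene, up to 3 rises and 3 falls per list at an adjusted p of at most 0.05, the cluster with 2 genes on each side, the 2 nearest patterns of each of Mmp13, Mmp3 and Mmp10, and overlapping genes. Other named list genes were chosen after their values were seen. Alternatives were other normalizations, filters, tests (DESeq2 1.42.0 among them), the replicate block, removal of each chromosome's median and leaving out each library. A planned comparison of protein sequences was not run.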

Additional observations from a re-analysis of the deposited data

How the results depend on the processing

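Mmp13 (4.3 to 4.46), Mmp3 (3.68 to 3.98), Mmp10 (4.56 to 4.94), Timp1 (-1.15 to -0.94) and Timp2 (-0.41 to -0.37) kept the direction of their log2 fold change in all 14 alternatives. The lowest and highest values were reached by leaving out 1 library. At these digits Timp1 was also at -1.15 with the chromosome medians removed, and Timp2 also at -0.41 with scaling by library size alone. Mmp14 ranged from -0.12 to -0.049 without 1 library and became 0.29 with the median of each chromosome removed, which shifts genes of chromosome 14 upward. Plau became 0.039 there for the same reason. At the threshold of the study's methods 275 genes were higher and 436 lower. The counts were 767 and 941 with every gene of at least 1 count, 607 and 812 with filterByExpr, and 2638 and 2639 at the adjusted p alone. The filters differ in how many genes they test. Of the 10 genes 1 was lower at the threshold of the methods, 2 at the adjusted p alone and between 0 and 1 without 1 library. It was 0 without sg-con replicate 3 and without sg-kiaa1522 replicate 1. The ratio of MMP to TIMP TPM in sg-con was 0.144, 0.21 with the longest transcript's length and 0.36 over all family genes, an alternative chosen after seeing the data. In the libraries labelled sg-kiaa1522 it was 1.86 and, over all family genes, 2.08.

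The groups share replicate numbers. Same-numbered libraries had correlations of -0.229, -0.053 and -0.17 between their deviations from the group mean. The mean was -0.15, against 0.0744 for libraries with different numbers. Deviations from a mean of 3 libraries depend on each other, so these values cannot decide whether a number marks shared handling. With the replicate block 285 genes were higher and 434 lower, the calls of the MMP and TIMP genes did not change in number (3 and 1), and 8 list genes rose and 18 fell, against 11 and 21. Genes with few counts (Mmp2, Mmp9, Mmp19, Timp3) are limited by depth.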
